A study of Mus musculus with 6 samples.

Results

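The genes described here encode the muscle nicotinic acetylcholine receptor and the proteins that gather it at the neuromuscular junction: the receptor subunits Chrna1, Chrnb1, Chrnd, Chrng and Chrne, the kinase Musk, the scaffold Rapsn, the nerve-derived ligand Agrn and its receptor Lrp4. They were chosen by name, and every probe set annotated to one of them on either chip was taken, which gave 12 probe sets for 9 of the 18032 genes measured. RNA came from myospheres, floating clusters of cells from the hind-leg muscle of male Balb/c mice, enriched for the surface antigen Sca1 by flow sorting and kept for 4 days in neurocult, a medium for neural stem cells, with LIF, B27, EGF and an additive the labels spell bf6f. The RNA was taken at passage 1 from 2000000 cells, and 3 replicates were run, each on an MOE430A and an MOE430B chip of Affymetrix, which makes 6 arrays. The mice's age is not given in the labels used here. All arrays carry the same submitter sample number, so the replicates may be repeat measurements of 1 RNA and the spread between them may be technical. There was no other condition, and the comparison made is that of each gene's signal with the background of its own array.

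At the neuromuscular junction, agrin released by the motor axon binds Lrp4 on the muscle membrane, Lrp4 activates the receptor tyrosine kinase MuSK, and rapsyn then clusters the acetylcholine receptors in the membrane beneath the nerve. The receptor is a pentamer of alpha, beta, delta and either gamma or epsilon subunits: the gamma subunit belongs to the fetal and denervated receptor, and the epsilon subunit replaces it in innervated adult muscle. Myogenic regulatory factors activate the subunit genes through E-boxes in their promoters, and GA-binding protein acts at a motif called the N-box in genes transcribed under the synapse. Agrin also exists in forms made by muscle and other cells of the body, which lack the strong clustering activity of the neural form.

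RefSeq promoter windows of GRCm38.p6, from 250 bases before to 50 bases after an annotated start, were matched by symbol for 6 of the 9 genes, in 7 windows, with 2 starts for Agrn. The windows of both genes that gave signal above background, Chrna1 and Agrn, are shown beside those of the fetal and adult subunit genes Chrng and Chrne, which did not. Capitals mark the E-box CANNTG, which reads the same on both strands, and the N-box CCGGAA, searched on both strands. No E-box overlapped an N-box in these windows. The Chrna1 window lies on the minus strand at chr2:73580289-73580588, the Chrng window on the plus strand at chr1:87205561-87205860, the Chrne window on the minus strand at chr11:70619145-70619444, and the window of the more upstream Agrn start on the minus strand at chr4:156197439-156197738.
Chrna1: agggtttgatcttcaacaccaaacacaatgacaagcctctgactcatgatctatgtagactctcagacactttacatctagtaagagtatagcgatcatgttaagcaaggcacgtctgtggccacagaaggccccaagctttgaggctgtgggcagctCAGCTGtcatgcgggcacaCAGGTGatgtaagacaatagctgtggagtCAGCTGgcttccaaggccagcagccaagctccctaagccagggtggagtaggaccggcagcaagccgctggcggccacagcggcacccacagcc
Chrng: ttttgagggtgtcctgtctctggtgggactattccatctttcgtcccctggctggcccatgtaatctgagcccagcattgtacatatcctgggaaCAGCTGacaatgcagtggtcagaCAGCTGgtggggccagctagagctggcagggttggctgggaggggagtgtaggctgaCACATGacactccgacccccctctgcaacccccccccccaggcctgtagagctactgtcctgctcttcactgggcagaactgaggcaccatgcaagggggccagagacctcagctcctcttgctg
Chrne: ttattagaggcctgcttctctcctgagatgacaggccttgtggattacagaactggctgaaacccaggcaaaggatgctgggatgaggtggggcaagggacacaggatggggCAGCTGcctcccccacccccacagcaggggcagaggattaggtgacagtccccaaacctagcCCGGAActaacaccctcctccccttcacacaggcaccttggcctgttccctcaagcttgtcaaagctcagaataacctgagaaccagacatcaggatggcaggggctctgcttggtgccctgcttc
Agrn: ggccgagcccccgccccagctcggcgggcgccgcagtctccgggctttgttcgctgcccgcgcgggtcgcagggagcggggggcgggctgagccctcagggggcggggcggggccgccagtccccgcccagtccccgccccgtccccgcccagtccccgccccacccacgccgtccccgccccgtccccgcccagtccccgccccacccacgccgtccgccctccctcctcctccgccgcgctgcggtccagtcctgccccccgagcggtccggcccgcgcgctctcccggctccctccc

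The Chrna1 and Chrng windows each held 3 E-boxes, of which 2 read CAGCTG, while the Chrne window held 1 E-box and the N-box. The Agrn window shown held no E-box or N-box, and 83.3% of its bases were G or C. Windows of the other members held 3 E-boxes for Chrnb1, 3 for Musk and 1 at the downstream Agrn start. Thus 6 of the 7 windows held CANNTG, against 72.3% of all 32851 promoter windows of the same length, and 4 of the 7 held CAGCTG, against 16.3% of all. The N-box was in 1 of the 7 windows and in 14.9% of all. These matches describe the letters of the windows and are no evidence of binding.

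Background was set on each array as the 95th percentile of probe sets for genes of other tissues, such as odorant receptors and keratin-associated proteins. In MAS5 signal on a linear scale, taking replicates 1, 2 and 3 in turn, the limit was 819, 784 and 822 for MOE430A and 3237, 2929 and 2542 for MOE430B. Reference probe sets themselves passed on all 3 arrays in 4 of 151 cases on MOE430A and in 2 of 44 on MOE430B. Across probe sets, which are not independent replicates, the correlation of log2 signal between 2 replicates was 0.749 to 0.773 for MOE430B and 0.92 for each pair of MOE430A arrays. Signal at the 3' end exceeded that at the 5' end by 8.55 to 16.5 times for the Gapdh and actin controls over the 6 arrays. Replicate 2 had the highest hybridisation controls, for 9 of 9 on each chip. Having only 3 arrays of each chip limits the precision.

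Of the 9 genes, 2 gave a signal above the limit on all 3 arrays of a chip: Chrna1 and Agrn. The other 7 were under it on every array and by every probe set. Over all genes measured 36.4% were above the limit by this rule. Most members had 1 probe set, and such genes passed less often: of the 7 members with 1 probe set 1 was above, against 22.5% of all 9064 genes with 1 probe set. These 7 members were all on MOE430A, while the 9064 genes came from both chips, so this share is not matched by chip. With MOE430A alone, 2 of the 9 members were above, against 42.7% of 12369 genes. Among member probe sets on MOE430A, 2 of 11 were above the limit on all arrays, against 35.1% of that chip's probe sets, and 9 of 11 were under it on all, against 53.6%. The median over the 9 genes of the lowest array's signal relative to its limit was 0.109, against 0.588 over all genes. In RNA from a whole culture, fewer cells of a type and less RNA per cell cannot be told apart, and a signal under the limit does not show that a transcript was absent.

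**Figure D1:**
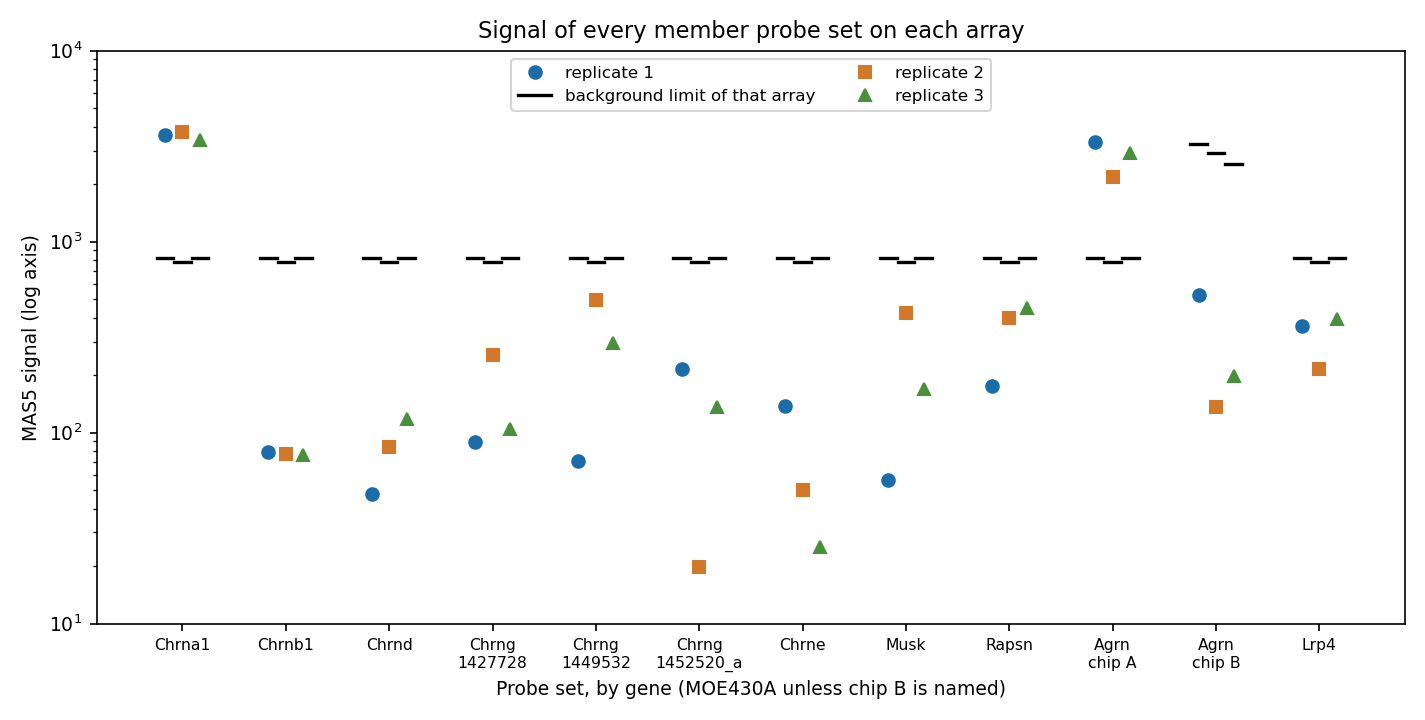
MAS5 signal (log axis) of the 12 member probe sets on each array, with a marker for each of replicates 1 to 3 and a black bar at the background limit of that array. Chrna1 and the MOE430A probe set of Agrn lie above their bars on all 3 arrays, and the other 10 probe sets lie under theirs.

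Chrna1 encodes the alpha subunit, which carries most of the acetylcholine binding site and is the only subunit present more than once in the receptor. Its probe set, 1418852_at on MOE430A, read 3637, 3739 and 3401 in replicates 1, 2 and 3, against limits of 819, 784 and 822. The 3 arrays lay close together and all far above their limits, at 3592 ± 173 (SD, n = 3), or 4.44 times the limit. On the log2 scale the difference from the limit was 2.15 ± 0.09 (SE; limma, adjusted p = 5.8e-07 over all probe sets of the chip), in a test that called 32.6% of MOE430A probe sets above the limit. Every reference probe set of another tissue had a lower mean signal on the chip. The SD of its log2 signal over the 3 arrays was 0.07, and the median SD of the 500 probe sets nearest to it in mean signal was 0.18.

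The remaining receptor subunits, 4 of 5, were under the limit. Chrnb1, the beta subunit of the muscle receptor, read 78.8, 77.4 and 76.2 in replicates 1, 2 and 3 by probe set 1420682_at. These values are nearly alike across arrays and are 0.0927 to 0.0987 of the limit (limma, adjusted p = 0.000382 for a level under it, a call that fell on 47.9% of MOE430A probe sets). The SD of its log2 signal was 0.02, and 0% of the 500 probe sets nearest in mean signal had a lower one. Chrnd, the delta subunit, read 47.5, 84.4 and 118 by probe set 1420761_at, a mean of 83.3 ± 35.3 (SD, n = 3). All 3 values were low, at no more than 0.144 of the limit, and limma placed the gene under it with an adjusted p of 0.000635.

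The subunit that distinguishes fetal from adult receptor was under the limit in either form. Chrng, the fetal gamma subunit and the neighbour of Chrnd with 0 protein-coding genes between them, was measured by 3 probe sets. Probe set 1427728_at read 89.4, 255 and 104 in replicates 1, 2 and 3, and 1449532_at read 71.2, 497 and 293. Both were highest in replicate 2 and lowest in replicate 1. The third, 1452520_a_at, whose probes match several transcripts of the gene, went the other way at 215, 19.8 and 136. The probe sets thus disagreed on which array was highest, and the nearest approach to the limit was 0.634 of it, by 1449532_at in replicate 2. Limma placed all 3 under the limit, with adjusted p of 0.00231, 0.0176 and 0.00417. For 1449532_at the call was lost without replicate 1 (adjusted p = 0.0808) and without the intensity trend in the variance (0.0546). Chrne, the adult epsilon subunit, read 137, 50.1 and 25.3 by probe set 1420560_at, with its highest value at 0.167 of the limit (limma, adjusted p = 0.000754).

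Agrn, the proteoglycan that starts receptor clustering, was above the limit by its MOE430A probe set 1426670_at, which read 3340, 2181 and 2925 in replicates 1, 2 and 3. These are 2816 ± 587 (SD, n = 3), or 3.43 times the limit, and even the lowest array was at 2.78 times it. On the log2 scale the difference from the limit was 1.78 ± 0.13 (SE; limma, adjusted p = 1.03e-05). The probe set does not name the splice form, so neural and other forms of agrin cannot be told apart. Its MOE430B probe set, 1443980_at, read 527, 137 and 198, against limits of 3237, 2929 and 2542, and was under the limit on every array, as were 78.7% of that chip's probe sets, while 10.1% were above on all 3. Limma placed it under the limit (adjusted p = 0.00106), a call that fell on 73.3% of MOE430B probe sets, against 8.57% called above. The probe sets of Agrn therefore disagreed on whether the gene was above background. On both chips replicate 1 was the highest and replicate 2 the lowest. The MOE430B arrays of replicates 2 and 3 came from another chip lot than that of replicate 1, while the MOE430A arrays shared a lot.

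The muscle-side receivers of agrin were under the limit. Lrp4, the agrin receptor, read 360, 216 and 395 by probe set 1426288_at, between 0.276 and 0.48 of the limit (limma, adjusted p = 0.00623). Musk, the receptor tyrosine kinase at the centre of the pathway, read 56.3, 422 and 169 by probe set 1450511_at, a 7.49-fold spread between the highest and the lowest array, with all 3 under the limit (limma, adjusted p = 0.00891). Rapsn, the cytoplasmic protein that ties receptors into clusters, read 175, 399 and 450 by probe set 1449331_a_at, at most 0.548 of the limit (limma, adjusted p = 0.0119). Without replicate 1 the Rapsn call was lost, at an adjusted p of 0.0655. Among reference probe sets of other tissues, 70.9% had a lower mean signal than that of Rapsn, 68.2% than that of Lrp4 and 55% than that of Musk. The receptor subunit genes under the limit lay within the same reference range, from 19.2% for Chrne to 64.9% for the Chrng probe set 1449532_at.

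**Figure D2:**
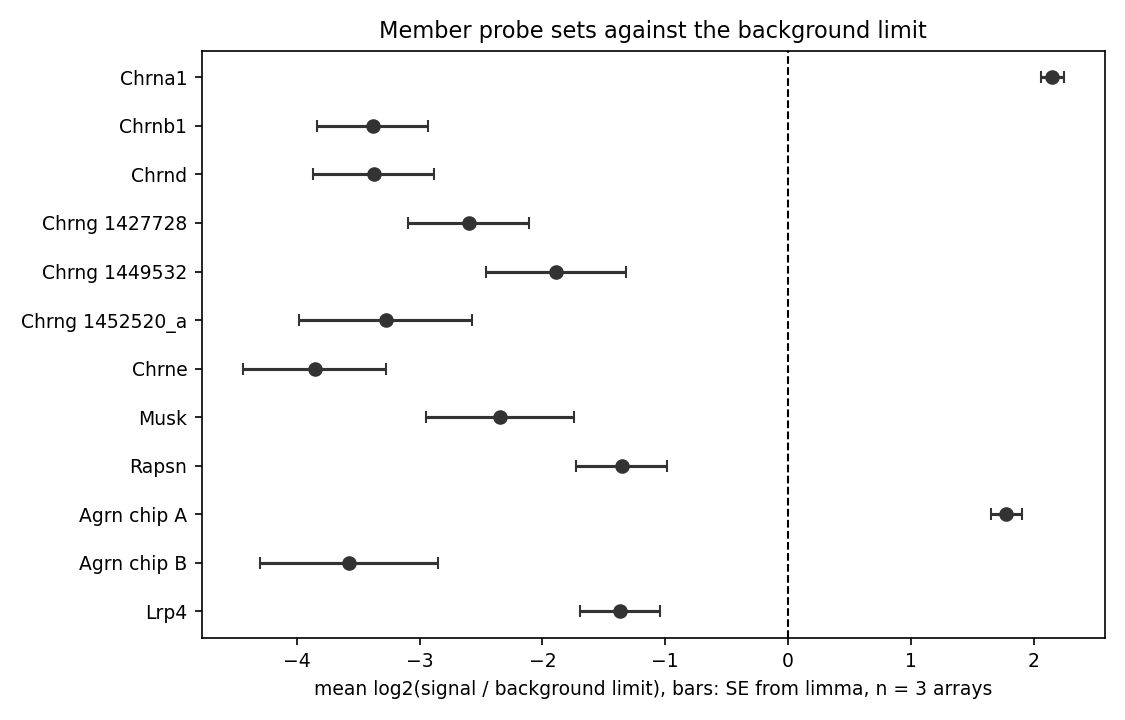
Mean log2 of signal over the array's background limit for each member probe set (horizontal axis), with SE bars from limma (n = 3 arrays); the dashed line marks the limit. Chrna1 stood at 2.15 and Agrn on MOE430A at 1.78, and the other 10 probe sets stood between -3.86 and -1.36.

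**Figure D3:**
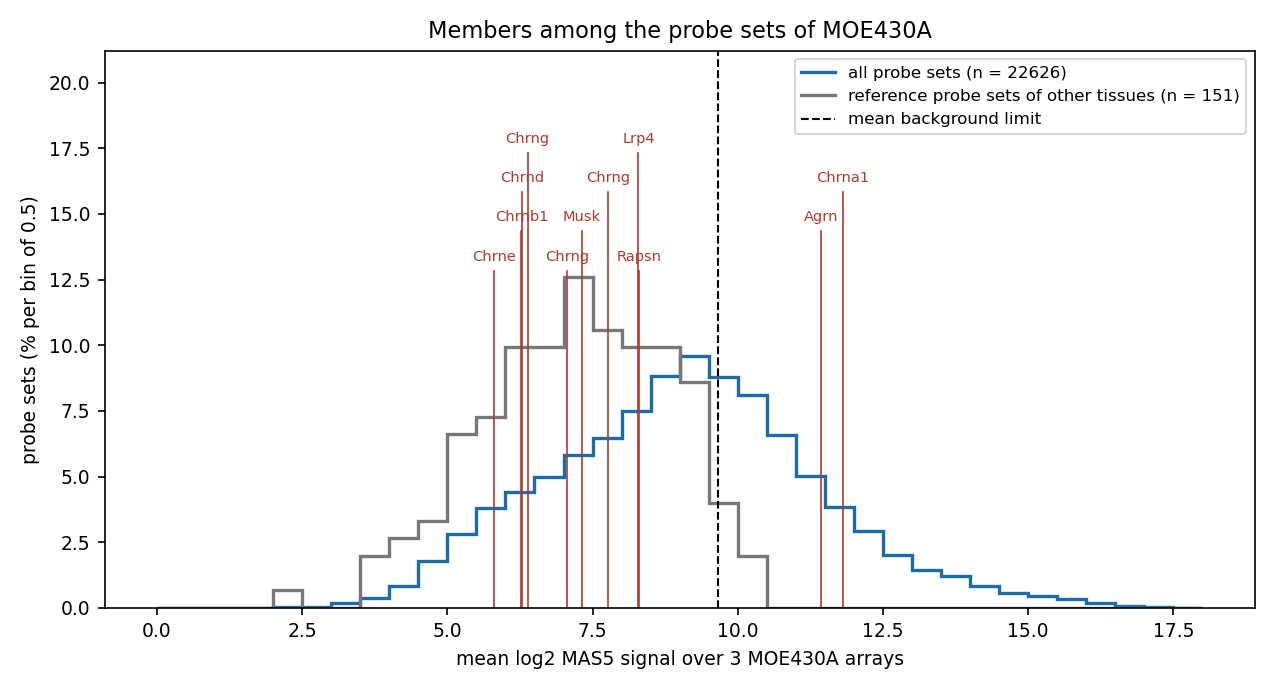
Share of MOE430A probe sets (% per bin of 0.5) by mean log2 signal over 3 arrays, for all 22626 probe sets and for the 151 reference probe sets of other tissues, with red lines at the members and a dashed line at the mean limit. The members other than Chrna1 and Agrn fall inside the range of the reference probe sets.

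The 10 probe sets under the limit did not share a pattern across replicates: 4 were highest in replicate 1, 3 in replicate 2 and 3 in replicate 3. Their coefficients of variation ran from 1.66% for Chrnb1 to 86.8% for Musk. Differences between replicates were tested with limma on the 3805 genes measured on both chips, with the chip as covariate. Agrn was the only member on both chips. Its log2 signal in replicate 1 minus that in replicate 2 was 1.28, with an SE of 0.54. This is the mean of 0.61 on MOE430A and 1.94 on MOE430B, and the MOE430B probe set was under its limit on every array, so the size of the difference rests mostly on a signal within background. The difference between replicates did not pass (limma's moderated F-test, adjusted p = 0.942). The test called 0 genes, or 0.0% (92 at an unadjusted p under 0.05).

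Further genes of the junction were counted in 8 lists by the same rule, beside the 36.4% of all genes. Any 1 passing probe set placed a gene above, so the count also depends on how many probe sets a gene has. Of all genes measured, 22.5% were above with 1 probe set, 46.2% with 2 or 3 and 65.8% with 4 or more. The lists were not matched to all genes in this respect. Crk, Cdc42 and Cttn, counted below, had 5 each. The median of the lowest array's signal over its limit is given with each count, against 0.588 over all genes. It uses the probe set of each gene with the highest such ratio. Partners and downstream signalling proteins of MuSK were above the limit for 16 of 19 genes (median 3.46). Dok7, the adaptor that activates MuSK from inside the cell, was not among them: its probe set 1442869_at on MOE430B read 2076, 2838 and 1531, at most 0.969 of that chip's limit. The other Dok7 probe set, 1434812_s_at, read 1429, 2461 and 2764 and was above on 1 of 3 arrays. The adaptors Crk and Crkl, which bind phosphorylated Dok7, read 6572 ± 1042 and 5297 ± 168 on MOE430A (SD, n = 3). The 5 genes farthest above the limit were cortactin (Cttn), beta-catenin (Ctnnb1), Rac1, Cdc42 and Rhoa, all general components of the cytoskeleton and of adhesion in many cell types. The probe sets that gave these 5 values have IDs ending in _a_at or _s_at, which match several transcripts. Without such probe sets 10 of 18 genes of the list were above.

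Genes of the synaptic basal lamina, the matrix sheet between nerve and muscle, were above the limit for 10 of 18 (median 1.599). These included the laminin chains Lama2, Lama4 and Lama5, which read 1518 ± 210.4, 3514 ± 496 and 1612 ± 145 on MOE430A (SD, n = 3). Another Lama5 probe set there, 1427010_s_at, was placed under the limit (limma, adjusted p = 0.00154). Another of Lama4, 1424808_at, was placed neither above nor under it (limma, adjusted p = 0.211). Farthest above were Col4a1, Nid1, Col4a2, Lamb1 and dystroglycan (Dag1). Of these, the products of Col4a1, Nid1, Col4a2 and Lamb1 are found in basal laminae well beyond the synapse. Limma placed another Lamb1 probe set, 1451241_at, under the limit (adjusted p = 0.0083). Lamb2, the laminin chain concentrated at the synapse, read 825, 620 and 972 and was above the limit on 2 of 3 arrays. Acetylcholinesterase (Ache), which ends transmission, read 126, 298 and 433, under the limit on every array, and Colq, the collagen tail that anchors it, read 742, 631 and 961, above on 1 of 3. Lamb2, Ache and Colq were chosen for mention after their values were seen.

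Of the postsynaptic cytoskeleton, 8 of 15 genes were above the limit (median 1.19). Utrophin (Utrn), which links the receptor-rich membrane to actin, read 1384 ± 278 by 1452222_at on MOE430A (SD, n = 3). Limma placed its other probe sets, 1426892_at and 1427569_a_at, under the limit (adjusted p = 0.00606 and 0.0214), so its probe sets disagreed. Dystrophin (Dmd), the relative of utrophin, read 774, 306 and 638 by 1417307_at on MOE430A, the probe set nearest to its limit and under it on every array. Plec, Sntb2, Ank3, Macf1 and Utrn were farthest above it. The count was 4 of 15 with the 99th percentile as limit.

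Genes of neuregulin signalling and of receptor gene transcription were above the limit for 2 of 15 (median 0.349). They were Tcf12, an E-protein that pairs with myogenic factors, and Gabpa, the DNA-binding subunit of GA-binding protein, at 1259 ± 210.5 on MOE430A (SD, n = 3). The other Gabpa probe set was under the limit (limma, adjusted p = 0.0288), so its probe sets disagreed. Nrg1, the neuregulin ligand, reached at most 0.244 of its limit on MOE430B. Its receptors Erbb2 and Erbb3 were each above on 1 of 3 arrays, at 823, 407 and 588 and at 572, 553 and 869. The myogenic factors Myod1 (1074, 605 and 1062 by 1418420_at) and Myog (730, 1332 and 1468) were each above on 2 of 3. Limma placed these probe sets neither above nor under the limit (adjusted p = 0.564 and 0.0726). Myf5 and Myf6 were placed under it (limma, adjusted p = 0.000594 and 9.31e-05). These factors were chosen for mention after their values were seen.

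The neuronal nicotinic subunits were above the limit for 1 of 10 (median 0.316). That gene was Chrna4, by probe set 1421203_at, at 841, 965 and 1142, just above its limits at 1.03 to 1.39 times them, and limma did not place it above (adjusted p = 0.144). Both other probe sets of Chrna4 were under the limit on every array. Chrna2 and Chrna3 were under the limit. Without replicate 1 the count was 2 of 10, with receptors alone as reference it was 0 of 9, and with limma in place of the rule 0 of 10 (0 at an unadjusted p under 0.05). Muscarinic receptors and presynaptic cholinergic genes were above for 0 of 9 (median 0.133), and limma also called 0 of 9 above (0 at an unadjusted p under 0.05). Chrm1 was above on 1 of 3 arrays and Chrm3 on 0, and Chrm2 was not analysed here.

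Enzymes of glycosylation and nucleotide sugar supply whose loss causes congenital myasthenia were above the limit for 5 of 5 (median 3.17), or for 3 of 4 without probe sets of shared sequence. Gfpt1, which commits fructose 6-phosphate to the hexosamine pathway, read 11409 ± 2375 on MOE430B, and Dpagt1, Alg2, Alg14 and Gmppb read 1551 ± 196, 3031 ± 62.2, 2978 ± 145 and 2570 ± 496 on MOE430A (SD, n = 3). The limits of the chips differ. The lowest array was at 3.17 times the limit for Gfpt1, and at 1.675, 3.64, 3.45 and 2.43 times it for Dpagt1, Alg2, Alg14 and Gmppb. On MOE430A Gfpt1 had means of 1353 by 1449268_at and 252 by 1418904_at, the latter placed under the limit (limma, adjusted p = 0.00432). Limma also placed the Alg2 probe set 1433144_at under it (adjusted p = 0.0139). The same held for the Alg14 probe sets 1419115_at and 1419116_at (limma, adjusted p = 0.0092 and 0.0252). The probe sets of these 3 genes thus disagreed. Of relatives of Lrp4 in the LDL receptor family, 5 of 10 were above (median 0.886): Lrp1, Lrp6, Lrp8, Lrp10 and Vldlr. Lrp8 was just above, with the lowest array of 1440882_at on MOE430B at 1.01 times the limit. Limma called 4 of 10 above, without Lrp8, and placed its MOE430A probe set 1421459_a_at under the limit (adjusted p = 0.00878). Probe sets also disagreed for Lrp6, with 1451022_at placed under the limit (limma, adjusted p = 0.000809). For Vldlr, 1417900_a_at and 1451156_s_at were placed under it (limma, adjusted p = 0.0236 and 0.0019). Lrp1, a large endocytic receptor, read 7000.2 ± 1412 on MOE430A, whereas Lrp1b reached at most 0.349 and Lrp2 at most 0.897 of the limit on MOE430B.

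**Figure D4:**
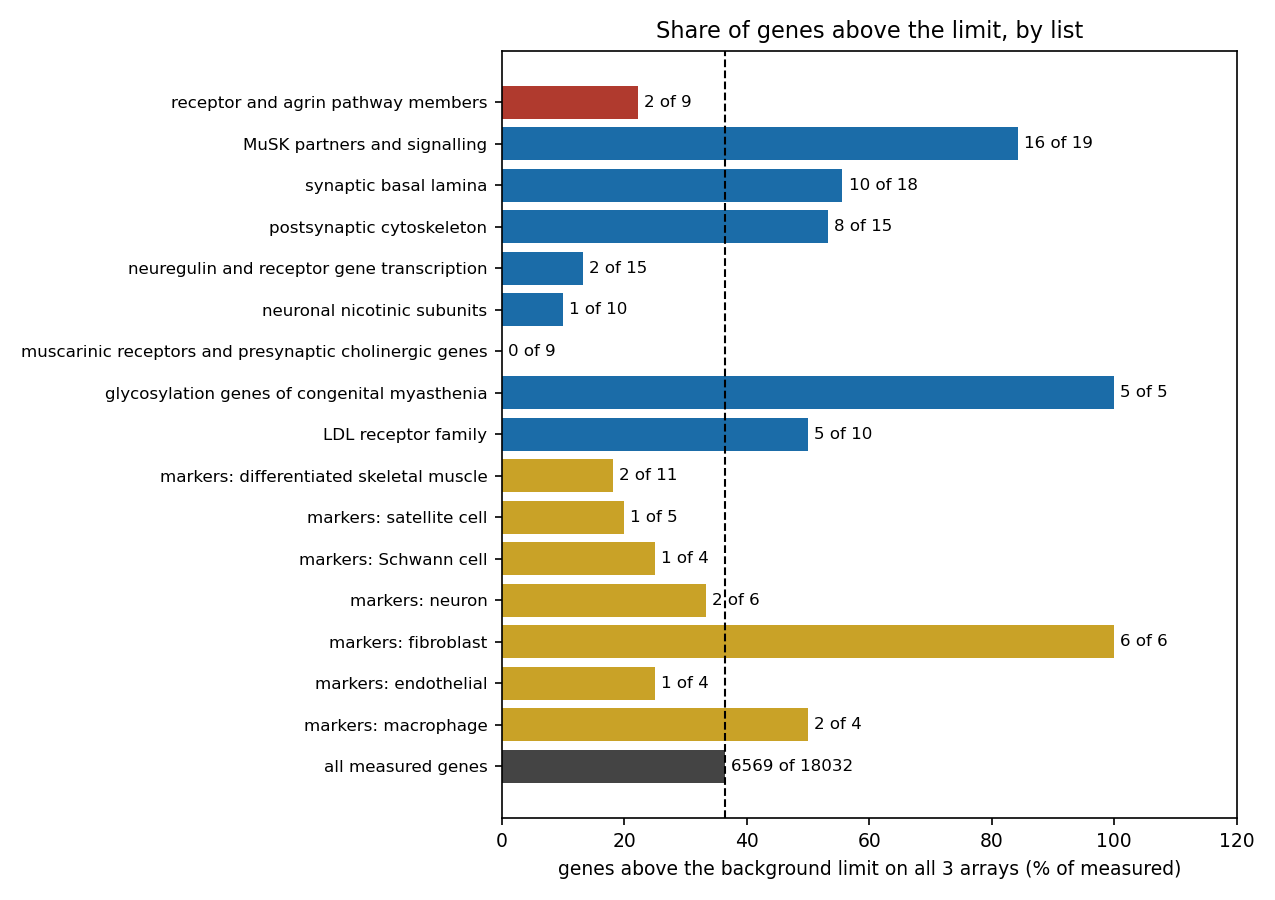
Share of measured genes above the background limit on all 3 arrays of a chip, by list, with the count beside each bar and a dashed line at the 36.4% of all genes. The line is not matched to the lists for probe sets per gene. The 9 members stood at 22.2%, the MuSK partners at 84.2% and the muscarinic and presynaptic cholinergic genes at 0%.

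Cell type markers were counted in the same way. Markers of differentiated skeletal muscle, the tissue in which the junction forms, were above the limit for 2 of 11 genes, Actc1 and Ttn, and those of satellite cells for 1 of 5, Vcam1. Vcam1 was above by 1448162_at, while limma placed 1451314_a_at under the limit (adjusted p = 0.0462). Its probe set 1415989_at was placed neither above nor under it (limma, adjusted p = 0.237). Ttn was just above, with its lowest array at 1.04 times the limit, and limma did not place it above (adjusted p = 0.188). The muscle count was 1 of 11 with limma's call, with the 99th percentile as limit or with receptors alone as reference, and 1 of 9 without probe sets of shared sequence. Fibroblast markers were above for 6 of 6, macrophage markers for 2 of 4, neuron markers for 2 of 6, Schwann cell markers for 1 of 4 and endothelial markers for 1 of 4, or 2 of 4 without replicate 1. The neuron markers were Nefl and Rbfox3, the latter with its lowest array at 1.04 times the MOE430B limit. Their count was 1 of 6 with limma's call and 3 of 6 without replicate 2. The Schwann cell marker was Sox10 by 1424985_a_at, while limma placed its other probe sets under the limit (adjusted p = 0.00995 and 0.0202). The share of any of these cell types in the Chrna1 and Agrn signals was not tested, and neither was the loss of 5' signal as a factor in the 7 genes under the limit.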

How the data were processed

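The deposited values are MAS5 signal intensity per probe set, per the submitters' processing notes; the version is not given in the sources used here. With 2% of probe sets trimmed at either end, array means lay between 1500.2 and 1500.8, so the arrays share the same trimmed mean. Signals of the chips were still on different scales: the mean background limit was 808 on MOE430A and 2903 on MOE430B. Chip type and lot came from the deposited array records, text of other kinds than expression. Probe sets with 1 annotated gene were used, with symbols matched through RefSeq (GRCm38.p6) for 20351 of 20393 on MOE430A and 14486 of 14674 on MOE430B.

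The limit used 151 reference probe sets on MOE430A and 44 on MOE430B: genes of chemosensory receptors (odorant, vomeronasal, taste), hair keratin partners, defensins, lens, sperm and placenta. Levels were tested with limma 3.58.1 (R 4.3.3) on log2(signal over limit) against 0, two-sided, with intensity trend and Benjamini-Hochberg adjustment over each chip. The limit was taken as fixed, and no pseudocount was used. Replicates were compared with limma's moderated F-test, without a filter on low signals. Scripts were tested on simulated data. Tables were made in Python 3.11.15 with pandas 2.3.3, numpy 2.4.6 and scipy 1.17.1, and figures with matplotlib 3.10.9.

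The members and lists were chosen with earlier results of these data known. All members are named. Of each other list, the first 3 genes were named, with every gene above the limit where there were 5 or fewer, and otherwise the 5 with the highest ratio of lowest array to limit; 1 gene so named is not reported here.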

Additional observations from a re-analysis of the deposited data

How the results depend on the processing

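Of the members, 2 were above the limit under all 12 alternatives: the 99th and 90th percentile, receptors alone as reference, the array median as limit, no probe sets of shared sequence (which leaves 8 members), 1 probe set per gene, MOE430A alone, quantile normalization, limma's call and each replicate left out. With receptors alone MOE430B gave no value, having 15 such probe sets. The setting with 1 probe set per gene kept the one highest over its limit. MOE430A alone left out only 1 member probe set, which was under its limit. These settings could therefore hardly lower the member count. The other lists together had 47 genes above, and 37 (without shared sequence) to 65 (array median) over the same alternatives. Single lists moved more: with the array median 6 of 10 neuronal nicotinic and 3 of 9 muscarinic and presynaptic genes were above, and 4 of 15 of the transcription list, which had 1 with the 99th percentile. Under 7 alternatives of limma's test against the limit, 2 member probe sets were above in each and 8 to 10 under. Between replicates, limma called 7 of 618 genes when only genes above the mean limit on both chips were tested, which left no member in the fit and fewer genes tested. It called 0 under each other alternative (88 to 141 at an unadjusted p under 0.05), and Agrn's adjusted p was 0.941 to 0.97. No paired analysis was possible because no result compares the chips, the groups that share replicate numbers; the replicate test joined both arrays of a replicate with the chip as covariate. With 3 arrays a chip, signals near background limit what can be said of the 7 genes under the limit.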

Other observations

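Among the marker genes of neurons, Nefl, the light chain of neurofilaments, was above the limit on both chips. It read 1667, 2585 and 2045 on MOE430A in replicates 1, 2 and 3 (limma, adjusted p = 0.000122) and 9972, 9530 and 12812 on MOE430B (limma, adjusted p = 6.96e-07). Tubb3, another neuronal marker of the list, read 14.0, 38.5 and 21.7 on MOE430A, far under the limit. These genes were chosen after their values were seen.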
